A study of Saccharomyces cerevisiae with 4 samples.

Results

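The genes described here encode cell wall mannoproteins of Saccharomyces cerevisiae that carry a glycosylphosphatidylinositol (GPI) anchor. They were chosen by name, as spots whose platform gene symbol is CWP1, CWP2, TIP1, TIR1, SPI1, SED1, CCW12, CCW14 or PST1. Of these 9 genes 8 had a spot with that symbol, 1 spot each, among the 6051 genes and unnamed spots tested. CCW14, which encodes a glycoprotein of the inner wall layer, is not analysed here. The tested cells carried hsf1-R206S/F256S, an allele of the essential heat shock transcription factor gene HSF1 with 2 amino acid changes, and the cells they were compared with carried wild-type HSF1. Both had been held at 39 °C for 15 min, each strain was measured on 2 arrays, and no unheated cells were analysed, so the values describe strains under heat and not induction. Each array held cDNA of 1 sample, made from total RNA with oligo(dT) and 33P-dCTP. The labels name neither the strain background nor the way in which the allele was introduced, and they do not call the replicates separate cultures, so p-values measure only the spread between these arrays, which may be technical.

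The yeast wall is a network of glucan with a little chitin, covered by a dense outer layer of mannoproteins. GPI mannoproteins are made with a signal peptide, receive the anchor in the endoplasmic reticulum, gain mannose chains on the way to the surface and are then linked through the remnant of the anchor to beta-1,6-glucan. Their set changes with growth phase, cell cycle, temperature and wall damage. Wall damage is signalled through the cell wall integrity pathway, a protein kinase C and mitogen-activated kinase cascade, while the stress activators Msn2, Msn4 and Hsf1 serve heat and other stresses.

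Intensities are in arbitrary units, quantile-normalized across the 4 arrays. The log2 scale was taken after values below 0 were set to 0 and an offset of 1.06 was added. A spot was called above background on an array when its deposited value was over 3 times the noise SD of that array. The noise SDs were 2.80 and 3.89 on the mutant arrays and 2.98 and 5.18 on the wild-type arrays. The median spot was brighter on the mutant arrays, at 11.9 and 8.49 deposited units against 6.28 and 5.86 on the wild-type arrays. The share of spots above background was 61.2% and 41.5% on the mutant arrays and 40.6% and 24.9% on the wild-type arrays. The way the arrays are scaled therefore bears on bright genes, and values under median scaling or the deposited values are given beside the results they move most. The HSF1 spot itself read 625 and 539.5 on the mutant arrays and 37.1 and -3.61 on the wild-type arrays, above background on 1 wild-type array. A transcript level does not check the presence of the 2 amino acid changes.

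Among the mannoprotein genes, 3 had a signal at least 2-fold lower in the mutant under every scaling tried. For the others the size of the difference depended on the scaling, and for CWP2 and CCW12 its direction did too. With quantile normalization SPI1, TIP1 and CWP1 were 7.34-fold, 6.61-fold and 6.20-fold lower in hsf1-R206S/F256S cells. CWP2, SED1 and CCW12 differed by -0.17, -0.48 and -0.14 on the log2 scale, and PST1 had a higher mean in the mutant by 0.61. TIR1 was not above background on any array. None of the 8 passed an adjusted p of 0.05 in limma over all genes tested, where 0% of the 6051 did. At an unadjusted p of 0.05, limma counted the same SPI1, TIP1 and CWP1, that is 3 of 8 members, against 11.7% of all genes tested. A fold rule without a p-value, a difference of at least 2-fold in means with no overlap between the arrays of the strains, was met by 3 of 8 members downward and 0 upward. Over all genes the rule was met downward by 12.8% and upward by 13.5%. The members were chosen with earlier results of these data known, so setting their shares beside those of all genes is not an independent test. Without the 2-fold limit, the mutant arrays both lay below the wild-type arrays for 5 of 8 members and above them for 1, beside 19.3% and 21.2% of all genes. The 7 members above background on all 4 arrays were also those whose mean level over the 4 arrays was above background, called bright here. Of these 7 bright members 3 passed the rule downward, against 9.91% of all 2220 bright genes. The filter on bright genes does not use the strains. The median log2 difference of the 8 members was -0.53, beside 0.01 over all genes. Over the 7 bright members, without TIR1, it was -0.48, beside 0.09 over all bright genes. With the arrays scaled to a common median instead, CWP2, SED1 and CCW12 were 2.52-fold, 3.13-fold and 2.38-fold lower, 6 of 8 members met the rule downward beside 12.8% of all genes, and the members' median was -1.49. That scaling also moved bright genes outside the members, CCW22 from 0.22 to -1.15 and PIR1 from 0.63 to -0.76. The bright but weaker BCK1 went from 1.63 to 1.78. The share over bright genes alone was not computed under median scaling, so the 6 of 8 is not shown to be particular to the members.

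**Figure D1:**
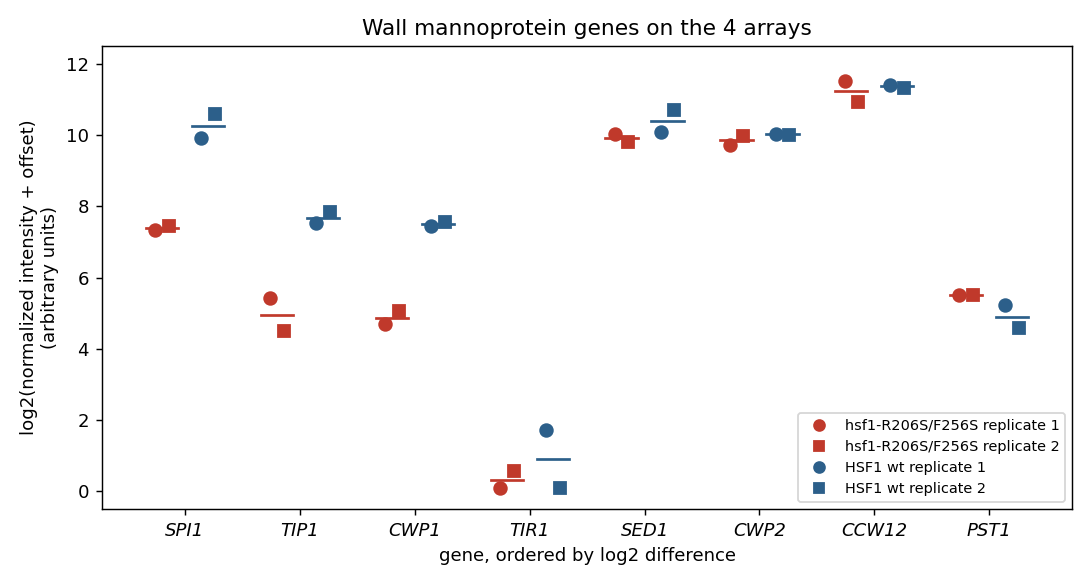
Level of each measured wall mannoprotein gene on the 4 arrays, as log2 of the quantile-normalized intensity plus the offset (arbitrary units), with hsf1-R206S/F256S in red left of HSF1 wt in blue, circles for replicate 1, squares for replicate 2 and a line at the mean of 2 arrays. Heights of different genes cannot be compared, since each has its own spot. For SPI1, TIP1 and CWP1 both red points lie below both blue points by more than the gap within either strain.

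SPI1 encodes a small wall protein that is known to be induced by weak acids and on entry into stationary phase. Its normalized intensity was 160.0 and 173 on the mutant arrays and 972 and 1555 on the wild-type arrays. The strains did not overlap, and the gap between them was wider than that between the wild-type arrays. The means were 167 ± 9.53 in the mutant and 1264 ± 412 in the wild type (SD, n = 2 each). The log2 difference was -2.88 (SE 0.44, 95% interval -4.18 to -1.58), with an adjusted p of 0.280 in limma. On the deposited scale the SPI1 spot stood 53.9 and 39.7 noise SDs high on the mutant arrays and 345 and 354 on the wild-type arrays, so background noise is small beside this difference. Wild-type replicate 2 was the highest array, and without it the log2 difference was -2.54. Median scaling moved it to -3.89. These RNAs come from whole cultures, so fewer cells with the transcript and less transcript per cell cannot be told apart, for this gene or the others.

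TIP1 encodes a major wall mannoprotein first described as inducible by temperature shock, the founder of a serine-rich family that also holds TIR1. It read 41.7 and 21.6 on the mutant arrays and 185 and 226 on the wild-type arrays. Both mutant arrays lay below both wild-type arrays. The 2 mutant arrays differed from each other by more than the 2 wild-type arrays did on the log2 scale. The means were 31.6 ± 14.2 in the mutant and 205.6 ± 29.0 in the wild type (SD, n = 2 each). TIP1 had a log2 difference of -2.73 (SE 0.51, 95% interval -4.22 to -1.23), with an adjusted p of 0.296 in limma. Leaving out mutant replicate 1 gave -3.18, leaving out mutant replicate 2 gave -2.27, and median scaling gave -3.41.

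CWP1 encodes a wall mannoprotein known to be deposited at the birth scar of daughter cells. Its intensity was 24.8 and 32.2 on the mutant arrays and 173 and 189 on the wild-type arrays. The replicates of each strain lay close together and the strains lay far apart. The means were 28.5 ± 5.21 in the mutant and 181 ± 11.5 in the wild type (SD, n = 2 each). The log2 difference was -2.63 (SE 0.39, 95% interval -3.77 to -1.49), with an adjusted p of 0.277 in limma. The CWP1 spot stayed at least 9.01 noise SDs high on all 4 arrays, and the TIP1 spot at least 6.10. Median scaling gave -3.24 for CWP1.

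The sizes of these 3 differences were not separated by the data, since each estimate lies inside the 95% intervals of the other two. SPI1, TIP1 and CWP1 stood at places 92, 125 and 147 from the bottom among 6051 log2 differences. They met the fold rule downward in all 9 alternatives tried that could change their differences. The other 4, the replicate block, the other moderation, the filter on bright genes and leaving out values at or below 0, leave them identical. Their adjusted p-values with limma's eBayes set to follow the intensity trend with robust priors were 0.0276, 0.0488 and 0.0322, past the threshold as were 0.595% of all genes tested, and this is 1 of the 13 settings. Over the 13, the adjusted p of SPI1 ran from 0.0276 to 0.584.

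CWP2 lies next to CWP1 on the same chromosome and encodes a major wall mannoprotein known for a part in tolerance of low pH. It read 848 and 1004 on the mutant arrays and 1047 and 1027 on the wild-type arrays. Both mutant values lay below both wild-type values, by less than the gap between the mutant arrays. The means were 926 ± 111 in the mutant and 1037 ± 13.8 in the wild type (SD, n = 2 each). Its log2 difference was -0.17 (SE 0.37, 95% interval -1.26 to 0.92), with an adjusted p of 0.888 in limma. Cyclic loess turned it to 0.06, the values as deposited gave -0.61, and median scaling gave -1.33.

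SED1 encodes a heavily glycosylated structural wall protein that is a main one in stationary phase, and it is the duplicate of SPI1 from the ancient whole-genome duplication. It read 1047 and 889 on the mutant arrays and 1082 and 1667 on the wild-type arrays. The strains did not overlap, but mutant replicate 1 and wild-type replicate 1 lay close together. The means were 968 ± 112 in the mutant and 1375 ± 414 in the wild type (SD, n = 2 each). The log2 difference was -0.48 (SE 0.44, 95% interval -1.77 to 0.81), with an adjusted p of 0.709 in limma. It ran from -1.65 with median scaling to -0.17 without wild-type replicate 2, so the size is not settled. In the values as deposited it was -0.92, with replicate 1 at 730 in the mutant and 1202 in the wild type.

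CCW12 encodes one of the most abundant wall mannoproteins, which gathers where the wall is being built and is needed for its stability. It read 2929 and 1962 on the mutant arrays and 2710.45 and 2572 on the wild-type arrays. After quantile normalization the mutant arrays lay on either side of the wild-type arrays, so the strains overlapped. The deposited values did not overlap, at 2010 and 2200 on the mutant arrays and 2581 and 3534 on the wild-type arrays. The normalized means were 2446 ± 684 in the mutant and 2641 ± 97.6 in the wild type (SD, n = 2 each). The log2 difference was -0.14 (SE 0.42, 95% interval -1.38 to 1.10), with an adjusted p of 0.922 in limma. It was 0.46 with cyclic loess, 0.15 without mutant replicate 2, -0.52 in the values as deposited and -1.25 with median scaling. CCW22, the duplicate of CCW12, has a spot of its own, which read 539.5 and 574 on the mutant arrays and 417 and 548 on the wild-type arrays, a log2 difference of 0.22 (SE 0.39) that median scaling turned to -1.15. The copies are alike in sequence, so their spots can share signal.

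PST1 encodes a protein secreted by cells that rebuild their wall and is a known output of the cell wall integrity pathway. It was the only measured member with a higher mean in the mutant under quantile normalization. It read 44.5 on both mutant arrays, where it held the same rank, and 36.3 and 22.8 on the wild-type arrays. Both mutant values lay above both wild-type values. The means were 44.5 ± 0 in the mutant and 29.5 ± 9.58 in the wild type (SD, n = 2 each). PST1 had a log2 difference of 0.61 (SE 0.44, 95% interval -0.67 to 1.89), with an adjusted p of 0.689 in limma. The spot stood only 3.29 noise SDs high on wild-type replicate 2, and without that array the log2 difference was 0.29. In the values as deposited it was 1.09, which met the fold rule upward as did 28.1% of all genes there. ECM33, its duplicate, read 39.5 and 82.8 on the mutant arrays and 61.2 and 53.6 on the wild-type arrays, and the strains overlapped.

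TIR1 encodes a serine- and alanine-rich mannoprotein of the TIP1 family that is known to be made in the cold and without oxygen. It read -4.17 and 0.414 on the mutant arrays and 2.22 and -3.51 on the wild-type arrays. All 4 deposited values lay between -1.42 and 0.495 noise SDs, so no level and no fold is given for either strain. Of its relatives, TIR3 was likewise not above background on any array. TIR2 was above background on 1 mutant array and 1 wild-type array and read 8.64 and 9.60 on the mutant arrays against 16.0 and 2.33 on the wild-type arrays. TIR4 was above background on both mutant arrays and on no wild-type array, at 14.0 and 11.3 in the mutant against 1.65 and -5.29 in the wild type. The background limits were too high for a bound on its fold.

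**Figure D2:**
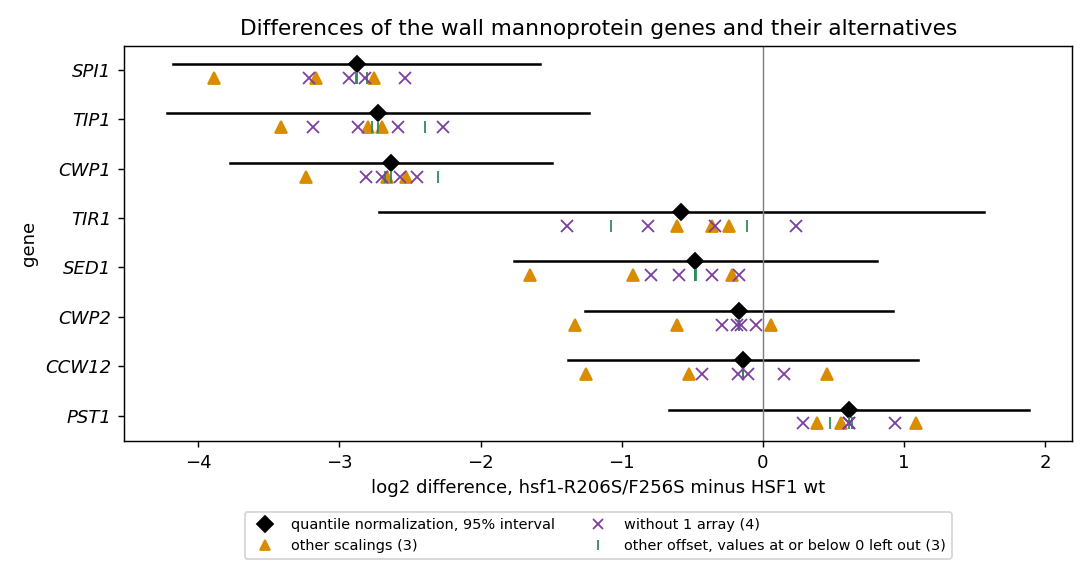
Log2 difference of each measured wall mannoprotein gene, hsf1-R206S/F256S minus HSF1 wt. Black diamonds with bars are the quantile-normalized estimates with 95% limma intervals from 2 arrays per strain, and the coloured marks are the estimates with 3 other scalings, without each of the 4 arrays, and with 3 other treatments of low values. SPI1, TIP1 and CWP1 keep every coloured mark below -2, while the marks of CWP2, CCW12 and TIR1 lie on both sides of 0.

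A ratio of 2 deposited values on one array is not changed by multiplying the whole array by a constant, though quantile normalization does change it, and it shows unequal change without saying which gene changed. The ratio of SPI1 to its duplicate SED1 in the deposited values was 0.206 and 0.178 on the mutant arrays and 0.857 and 0.969 on the wild-type arrays. The strains did not overlap, and the ratio was 4.76-fold lower in the mutant, with a replicate SD of 0.14 on the log2 scale beside a difference of -2.25. The ratio of CWP1 to its neighbour CWP2 was 0.0521 and 0.0353 on the mutant arrays and 0.150 and 0.184 on the wild-type arrays. It was 3.88-fold lower in the mutant, a log2 difference of -1.96 with a replicate SD of 0.32. After quantile normalization the differences of these ratios were -2.40 for SPI1 over SED1 and -2.47 for CWP1 over CWP2. For either pair the smallest p that an exact two-sided permutation test of 2 arrays against 2 can give is 0.333.

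The remaining pairs of duplicates moved less. The ratio of CCW12 to CCW22 was 4.86 and 4.96 on the mutant arrays and 5.42 and 5.11 on the wild-type arrays. The strains did not overlap, and the log2 difference of -0.10 compares with a replicate SD of 0.045. Since these 2 spots can share signal, their ratio cannot show whether the 2 genes changed alike. The ratio of PST1 to ECM33 was 1.10 and 0.577 on the mutant arrays and 0.565 and 0.393 on the wild-type arrays. Mutant replicate 2 and wild-type replicate 1 almost met there, and the log2 difference of 0.76 compares with a replicate SD of 0.53. After quantile normalization the strains overlapped in this ratio.

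**Figure D3:**
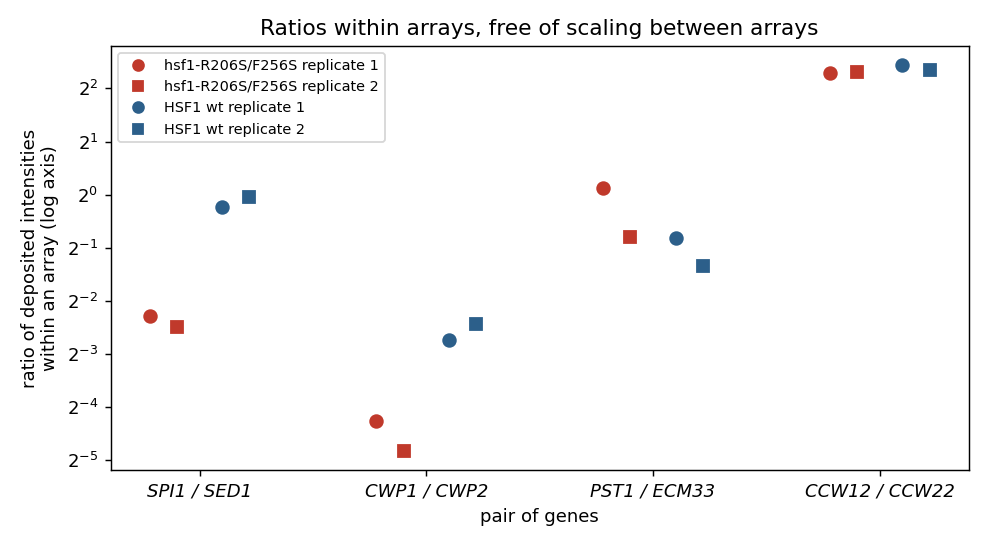
Ratio of the deposited intensities of 2 genes on the same array, on a log axis, for 4 pairs, with hsf1-R206S/F256S in red left of HSF1 wt in blue, circles for replicate 1 and squares for replicate 2. SPI1 over SED1 is 0.206 and 0.178 in the mutant and 0.857 and 0.969 in the wild type. CCW12 over CCW22, whose spots can share signal, stays between 4.86 and 5.42 on all 4 arrays.

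The 8 spots together held 1.83% and 2.15% of the summed positive intensity on the mutant arrays and 3.17% and 4.24% on the wild-type arrays. The strains did not overlap in this share. The wild-type arrays, with the higher shares, were also those with the dimmer median spot, and the part of that in the share was not tested.

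Genes next to the members on their chromosomes were looked at after the members' values were known. Of 12 neighbours with a spot that are not members themselves, 3 met the fold rule downward and 0 upward, beside 12.8% and 13.5% of all genes, and 2 of the 3 were below background on all 4 arrays. AHP1, a thioredoxin peroxidase gene beside CCW12, read 700.1 and 405 on the mutant arrays and 1555 and 2208 on the wild-type arrays, a log2 difference of -1.80 (SE 0.50), or -3.11 with median scaling. YJU2, beside CWP1, and PRE1, beside TIR1, are these 2 dim genes, so no fold is given for them. The other 9 neighbours had log2 differences from -0.65 to 0.93, and these include both neighbours of SPI1 and of TIP1.

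By distance between centred log2 profiles over the 4 arrays, the bright named genes closest to SPI1 among 2112 were MDJ1, SIP4 and OPI10, at distances of 0.20, 0.29 and 0.39. MDJ1, a mitochondrial Hsp40 gene, read 13.6 and 13.9 on the mutant arrays and 93.9 and 160.0 on the wild-type arrays. SIP4, which encodes an activator of gluconeogenic genes, read 9.72 and 12.7 on the mutant arrays and 70.8 and 136 on the wild-type arrays. OPI10 read 9.17 and 8.78 on the mutant arrays and 77.0 and 113 on the wild-type arrays. The genes closest to PST1 were JAC1, PDB1 and MRPL16, at distances of 0.07, 0.13 and 0.14, with log2 differences of 0.56, 0.55 and 0.59, or 0.45, 0.14 and 0.51 with median scaling. Bright refers to the mean over the arrays. JAC1 and MRPL16 read 14.0 and 10.4 on wild-type replicate 2, under its normalized background limit of 20.8. The 8.78 of OPI10 on mutant replicate 2 was likewise under that array's limit of 11.0. With 4 arrays such a profile is mostly the strain difference and the gap between the wild-type arrays.

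The other wall genes were described from lists, with counts beside the 12.8% downward and 13.5% upward of all genes tested. None of their members passed an adjusted p of 0.05 in limma, and 15 of 126, or 11.9%, did at an unadjusted p of 0.05, beside 11.7% of all genes. Of 23 other GPI proteins of the wall and surface, 4 passed the fold rule downward and 3 passed it upward, and the median log2 difference was 0.14, or 0.36 with median scaling. SAG1, the alpha-agglutinin gene that mating cells of the alpha type express, read 26.6 and 38.0 on the mutant arrays and 1.87 and 1.10 on the wild-type arrays. It was above background only in the mutant and at least 1.99-fold higher there. The labels do not give the mating type of either strain. NCW2, a gene for a GPI protein linked to chitin and glucan organisation, read 347 and 446 on the mutant arrays and 136 and 97.9 on the wild-type arrays, a log2 difference of 1.76 (SE 0.43) that was 0.77 with median scaling. DAN1, a mannoprotein gene expressed without oxygen, met the rule downward and was not above background on any array. Chosen after their values were seen, the bright members past the rule downward were FIT3 and KRE1. FIT3, a mannoprotein gene of iron uptake, read 12.8 and 37.5 on the mutant arrays and 59.3 and 83.1 on the wild-type arrays, 3.08-fold lower. KRE1, a gene of beta-1,6-glucan assembly, read 12.6 and 9.76 on the mutant arrays and 31.3 and 18.9 on the wild-type arrays, 2.09-fold lower, and was above background on 1 array of each strain. Its log2 difference of -1.07 was -0.51 in the values as deposited, where it missed the rule.

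The PIR proteins, which are bound to beta-1,3-glucan without a GPI anchor, had 1 of 5 members past the rule downward, PIR5, which was above background on only 1 array, and 0 upward. Their median log2 difference was 0.63, which median scaling turned to -0.76 and the deposited values to -0.03. PIR1, the member at the median in these settings, read 972 and 735 on the mutant arrays and 523 and 568 on the wild-type arrays. Of 22 genes for glucan and chitin enzymes, 3 passed the rule in each direction, and the median was -0.06, which median scaling turned to 0.13. All of the 3 downward were below background on every array, and so was GAS2 among the 3 upward. UTR2, which encodes a transglycosylase that links chitin to glucan, read 216 and 175 on the mutant arrays and 59.0 and 61.2 on the wild-type arrays. Its log2 difference was 1.68 (SE 0.38), or 0.97 with median scaling.

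**Figure D4:**
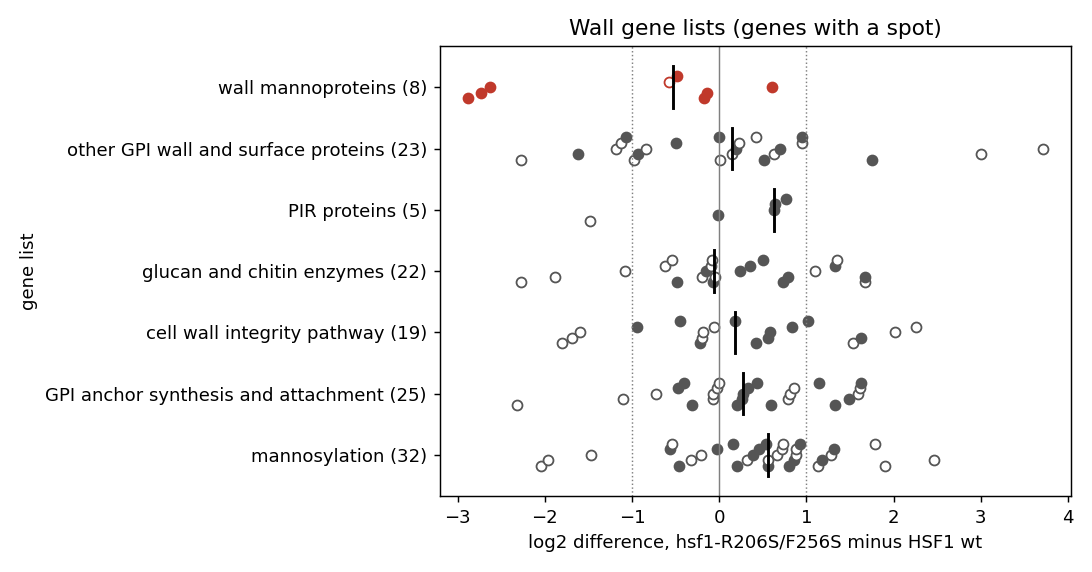
Log2 difference, hsf1-R206S/F256S minus HSF1 wt, of every gene with a spot in 7 lists of wall genes, from 2 arrays per strain. Filled points are genes bright by their mean over the 4 arrays, open points are dim genes, black bars are list medians and dotted lines mark a 2-fold difference. In the 6 lists other than the wall mannoproteins, most points beyond -1 are open.

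In the cell wall integrity pathway 2 of 19 genes passed the rule downward and 3 passed it upward, and the median was 0.19, which median scaling turned to -0.05. BCK1, the kinase that activates the pathway's mitogen-activated kinase kinases, read 24.7 and 31.8 on the mutant arrays and 18.3 and 3.50 on the wild-type arrays. Its log2 difference of 1.63 (SE 0.87) was 0.59 without wild-type replicate 2. MID2, a wall stress sensor gene, read 19.4 and 16.8 on the mutant arrays and 14.0 and -0.650 on the wild-type arrays, and SDP1 and MKK2 were not above background on any array. Genes for synthesis and attachment of the GPI anchor had 1 of 25 past the rule downward and 5 past it upward, and their median was 0.28, or 0.15 with median scaling. CWH43, which acts on the lipid of the anchor, read 17.0 and 11.0 on the mutant arrays and 3.21 and 4.60 on the wild-type arrays. It was above background on both mutant arrays and on no wild-type array, without a bound on its fold. GPI13 and DCW1 each lay above background on 1 wild-type array, and DFG5, past the rule downward, on no array.

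The log2 difference was above 0 for 23 of 32 mannosylation genes, beside 50.6% of all genes. The rule was passed upward by 4 and downward by 1, and the list median was 0.56, or 0.41 with median scaling. MNN9, a subunit of the Golgi mannan polymerases, read 98.4 and 67.1 on the mutant arrays and 38.1 and 26.8 on the wild-type arrays, a log2 difference of 1.32 (SE 0.45), or 0.96 with median scaling. PMT6, an O-mannosyltransferase gene, was above background only in the mutant and at least 1.12-fold higher there. PMT4 and MNT2 were not above background on any array.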

How the data were processed

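Values were deposited by the authors as spot intensity on a linear scale, 1 column per array. Negative numbers and near-equal array means are what background subtraction and scaling give, and the labels state neither. Of 6084 spots 5523 had 1 gene symbol in GEO's platform annotation, 0 several and 561 none. Arrays were quantile-normalized, values below 0 set to 0, an offset equal to the 5th percentile of the positive values added, and spots of one gene averaged on the log2 scale. limma 3.58.1 in R 4.3.3 (lmFit, eBayes, two-sided, Benjamini-Hochberg over 6051 genes and unnamed spots) compared the strains without a replicate block, on 2 residual and 1.54 prior degrees of freedom. The scripts were tested on simulated data with less replicate noise than these arrays have. That run checked the mean fitted difference, not how well genes are called in data as noisy as these. The number of arrays limits the precision.

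Folds come from log2 means. Where a gene was below background on both arrays of 1 strain, the bound replaces each of its values under the limit by that array's limit. Members and lists were chosen with earlier results of these data known. Named genes were all members, their relatives, up to 4 genes per list past the fold rule with the largest differences, and the 3 genes closest in profile to the members with the lowest and highest difference. The alternatives were other scalings, offsets, filters, moderation, a replicate block, and leaving out each array without renormalizing. Searches of promoters and proteins were planned and not run.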

Additional observations from a re-analysis of the deposited data

How the results depend on the processing

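SPI1, TIP1 and CWP1 were lower in the mutant and past the fold rule under the 9 alternatives that could change their differences, and 4 others leave them identical. The count of members past an adjusted p of 0.05 in limma was 0 except with an intensity trend and robust moderation, where it was 3. Over all genes that setting called 36 and the filter on bright genes 12, against 0. The count past the fold rule downward was 6 with median scaling, against 12.8% of all genes there, with CWP2, SED1 and CCW12 added. The share over bright genes alone was not computed for that scaling. Upward it was 1, PST1, in the values as deposited, where the median of all genes was 0.63. Leaving out 1 array gave 3 to 4 downward, beside 16.5% to 23.2% of all genes, 0 upward and 0 past the adjusted p. The 4 arose without wild-type replicate 2, with TIR1, which is not above background. The members' median of -0.53 was -1.49 with median scaling, -0.76 as deposited, -0.41 with cyclic loess, -0.78 with an offset 10 times smaller and -0.32 with one 10 times larger, and -0.79 to -0.47 without 1 array. The -0.79, which came without wild-type replicate 2, rests on TIR1 as 1 of the 2 middle members. So do the -0.53, the -0.41 with cyclic loess and the -0.78 with the smaller offset. Over the 7 bright members, without TIR1, the median was -0.48 with quantile normalization.

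Directions turned for CWP2 with cyclic loess (0.061), for CCW12 with cyclic loess (0.46), and for CCW22 as deposited (-0.42) and with median scaling (-1.15). Without 1 array each, CCW12 ran from -0.43 to 0.15, TIR1 from -1.39 to 0.24 and TIR2 from -0.75 to 1.59. ECM33, at a difference of 0.00, was 0.36 as deposited, 0.057 with cyclic loess, 0.011 with the larger offset and -0.52 to 0.52 without 1 array. The causes were not tested. The replicate block left 0 members past the threshold, as without it. Same-numbered arrays deviated together with a correlation of only 0.02 over genes, and the labels do not say that numbers pair them.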
